A study of Drosophila melanogaster with 2 samples.

Results

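Of the 4797 reproducible Hr83-GFP peaks in whole larvae, 189 had their summit, the position of highest enrichment, nearest to the annotated transcription start site (TSS) of a gene that encodes no protein. A peak was included when that TSS lay within 500 bp of the summit and the gene was neither protein-coding nor a transposable element, and peaks equally near to a protein-coding TSS were left out. Another 2893 peaks were nearest to a protein-coding TSS within 500 bp and are called coding promoter peaks, 22 were nearest to the start of a transposable element, and 1693 lay farther than 500 bp from any TSS. Hr83 is an orphan nuclear receptor of Drosophila melanogaster, and its chromatin occupancy was measured by ChIP-seq. The series held 1 group: wandering larvae of the third instar, strain Hr83-GFP, a stably transgenic line that expresses Hr83 with GFP at its C-terminus, sexes pooled, with chromatin sonicated and precipitated with an antibody against GFP. It had 2 biological replicates, numbered 3 and 4, and no other genotype or treatment. Whole animals were used, so a peak does not tell in which tissue the receptor was bound, and nothing in the labels says whether the untagged Hr83 gene was intact in this line. The files gave regions with a signal per peak and no read counts, so the depth is unknown. Since there is 1 group, no p-value was computed.

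The noncoding genes fall into several kinds. Long noncoding RNAs (lncRNAs) and antisense RNAs (asRNAs, on the strand opposite to a coding gene) are transcribed by RNA polymerase II, and some lncRNAs are primary transcripts from which microRNA (miRNA) hairpins are cut. Small nucleolar RNAs (snoRNAs) guide modification of ribosomal RNA and are mostly cut from introns, small nuclear RNAs (snRNAs) build the spliceosome or, like 7SK, bind the transcription elongation factor P-TEFb, and transfer RNAs (tRNAs) and U6 snRNA are made by RNA polymerase III. The annotated start of an miRNA hairpin, or of a snoRNA cut from an intron, is the end of a processed RNA and not a promoter. Promoters of RNA polymerase II genes can hold a TATA box near the start, an initiator (Inr) at it, or binding sites such as the DNA replication-related element (DRE).

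The sequences at 6 of the peaks are shown first, since they include the strongest peak at the start of a primary miRNA transcript, those of the hosts of mir-bft and bantam, and those of the well-studied RNA genes Hsromega, roX1 and U6. Each is the window of 200 bp around the summit on dm6, from the RefSeq genome sequence, written 5′ to 3′ on the strand of the gene. Capitals mark matches on either strand to any of the 12 motifs listed further on.
lncRNA:CR31044 (chr3R:29214344-29214543, plus strand): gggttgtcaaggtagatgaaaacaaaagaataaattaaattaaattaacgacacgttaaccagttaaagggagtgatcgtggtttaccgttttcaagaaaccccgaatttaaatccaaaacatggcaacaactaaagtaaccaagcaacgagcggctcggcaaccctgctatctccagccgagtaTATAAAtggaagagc
lncRNA:CR43314 (chr2L:11971076-11971275, minus strand): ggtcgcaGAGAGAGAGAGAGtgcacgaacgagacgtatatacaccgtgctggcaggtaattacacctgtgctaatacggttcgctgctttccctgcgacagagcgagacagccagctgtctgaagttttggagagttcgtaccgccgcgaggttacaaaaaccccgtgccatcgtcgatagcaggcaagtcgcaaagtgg
lncRNA:CR43334 (chr3L:628184-628383, plus strand): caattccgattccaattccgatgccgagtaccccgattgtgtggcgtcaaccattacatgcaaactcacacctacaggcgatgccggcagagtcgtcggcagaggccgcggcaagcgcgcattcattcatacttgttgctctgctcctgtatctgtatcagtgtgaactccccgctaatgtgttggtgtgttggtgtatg
lncRNA:Hsromega (chr3R:21296530-21296729, plus strand): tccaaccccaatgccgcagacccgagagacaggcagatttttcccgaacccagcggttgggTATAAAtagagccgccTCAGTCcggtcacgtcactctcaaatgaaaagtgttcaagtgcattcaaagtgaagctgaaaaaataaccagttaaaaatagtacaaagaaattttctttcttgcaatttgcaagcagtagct
lncRNA:roX1 (chrX:3862363-3862562, minus strand): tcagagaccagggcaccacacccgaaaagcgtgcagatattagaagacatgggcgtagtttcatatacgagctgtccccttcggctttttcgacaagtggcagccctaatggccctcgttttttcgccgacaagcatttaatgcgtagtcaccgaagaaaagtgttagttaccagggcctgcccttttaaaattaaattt
snRNA:U6:96Ac (chr3R:24557010-24557209, plus strand): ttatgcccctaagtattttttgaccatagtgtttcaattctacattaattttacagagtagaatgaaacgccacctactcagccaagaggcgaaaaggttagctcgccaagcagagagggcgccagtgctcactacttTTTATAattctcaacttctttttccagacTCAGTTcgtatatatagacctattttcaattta
In the window of lncRNA:CR31044 the TATA box TATAAA occupied bases 186 to 191, and its first base lay 33 bases upstream of the annotated TSS. In that of Hsromega the TATA box began 30 bases upstream of the TSS nearest to the summit and an Inr, TCAGTC, began 14 bases upstream. At snRNA:U6:96Ac the summit window held TTTATA, the TATA box letters on the reverse strand, beginning 67 bases upstream of the start. The Inr letters TCAGTT began 38 bases upstream. The stretch tatatata, closer to the start, is unmarked because its letters are not among the 12 motifs. Here and in the other windows the matches are of letters only, and their use as promoter elements was not tested. At lncRNA:CR43314 the 4 overlapping matches to GAGAGAG spanned bases 8 to 20, the nearest beginning 168 bases upstream of the TSS. The windows of lncRNA:CR43334 and roX1 held no match to the 12 motifs.

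The mature miRNAs below come from 9 of the hairpins whose noncoding host gene carried a peak at an annotated TSS. The arm shown is the one known as the main product. They were read from the RefSeq genome at the coordinates of the Ensembl annotation and are written as RNA, with the seed, bases 2 to 8, in capitals.
mir-279 3p (chr3R:29215651-29215672, plus strand): uGACUAGAuccacacucauuaa
mir-996 3p (chr3R:29217244-29217265, plus strand): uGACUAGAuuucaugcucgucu
mir-ban 3p (chr3L:642259-642281, plus strand): uGAGAUCAuuuugaaagcugauu
mir-bft 5p (chr2L:11953463-11953486, minus strand): aAUGGCACuggaagaauucacggg
mir-9a 5p (chr3L:19565140-19565162, plus strand): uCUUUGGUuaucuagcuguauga
mir-276a 3p (chr3L:10365281-10365302, plus strand): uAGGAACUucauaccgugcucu
mir-282 5p (chr3L:3251038-3251061, plus strand): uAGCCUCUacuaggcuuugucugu
mir-275 3p (chr2L:7425853-7425875, plus strand): uCAGGUACcugaaguagcgcgcg
mir-375 3p (chr2L:857596-857617, plus strand): uUUGUUCGuuuggcuuaaguua
The miRNAs mir-279 and mir-996, from the same host lncRNA:CR31044, share the seed GACUAGA, and the seeds of the other 7 differ from it and from each other.

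Several of the peaks lay at the starts of primary miRNA transcripts. Of 37 lncRNA, asRNA and other noncoding genes that contain an annotated miRNA hairpin on their own strand, 11 had a summit within 500 bp of a TSS, or 29.7% (95% Clopper-Pearson interval 15.9 to 47.0). Of 2473 such genes with neither a hairpin nor a snoRNA inside them, 207 did, or 8.37% (7.31 to 9.53). Over all genes other than transposable elements the share was 20.8%, and over protein-coding genes it was 24.2%. The interval of the hairpin hosts holds both of these shares. None of the 11 hosts with a peak had a coding TSS within 500 bp of its own. Among genes without such a neighbouring coding TSS, 11 of 34 hosts (32.4%, 17.4 to 50.5) and 88 of 2006 genes that host neither (4.39%, 3.53 to 5.38) carried a peak. The hosts were singled out after their values were seen, so these intervals describe the list and are no test. Hosts were also longer, with a median of 6.44 kb against 0.701 kb, and 37.8% of them, against 4.61%, had more than 1 TSS. Among genes with a single TSS, 6 of 23 hosts (26.1%, 10.2 to 48.4) and 184 of 2359 other genes (7.80%, 6.75 to 8.96) had a peak. Among genes with several TSSs, 5 of 14 hosts (35.7%, 12.8 to 64.9) and 23 of 114 other genes (20.2%, 13.2 to 28.7) did, with intervals that overlap. The part of gene length in these differences was not tested.

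The 11 hosts carried 17 of the 189 peaks. Signals at these 17 spanned 73.8 to 443, median 138, against a range of 63.5 to 719 and a median of 88.9 at the other 172. The nearest noncoding TSS of all 17 lay outside protein-coding genes, the closest coding TSS being at least 1138 bp from any of their summits. In the replicates' own lists, 16 of the 17 overlapped one of the 4797 strongest regions of both, or 94.1%, against 58.7% of the other 172 peaks and 60.9% of all thresholded peaks. Stronger peaks overlapped more often: among the 2398 strongest of the list, all 14 of the hosts' peaks did (interval from 76.8%), 73 of the other 80 did (91.2%, 82.8 to 96.4), and 90.7% of all peaks did.

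The strongest was at lncRNA:CR31044 (FBgn0051044), annotated in RefSeq as the primary transcript of mir-279 and mir-996, of which mir-279 is known for limiting the number of carbon dioxide-sensing neurons. Its summit, at 29214444 on 3R, lay 118 bp upstream of the TSS and 1141 bp from the nearer hairpin. The signal was 443, which put it at rank 34 among all peaks. It ranked 32 in replicate 3 and 52 in replicate 4, and the nearest coding TSS, of eEF1gamma, was 5728 bp away.

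The next host was lncRNA:CR43626, which holds mir-282. It carried 3 peaks at its TSSs, with signals of 247, 144 and 138. A further peak of 123 lay 52 bp from the start of a mature mir-282 arm at 3251081, not the 5p arm shown above. In replicate 3 these ranked 427, 886, 941 and 1203, and in replicate 4 they ranked 147, 975, 1374 and 1580. All 4 thus stood in the strong regions of both replicates, with their summits between 3249153 and 3251133 on 3L.

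The primary transcript of mir-14, lncRNA:CR43651 on 2R, had a signal of 214 with the summit 13 bp from its TSS, and ranked 241 in replicate 3 and 851 in replicate 4. In Drosophila mir-14 is known as a regulator of ecdysone receptor levels and metabolism. A separate peak of signal 109, 312 bp from the hairpin, was counted at mir-14 itself.

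Hsromega (FBgn0001234), the heat-shock inducible lncRNA that organises omega speckles in the nucleus, also contains the annotated hairpin mir-4951. Its peak, 9 bp downstream of 1 of its 2 TSSs, had a signal of 202, rank 332 among all peaks. It stood at place 617 of replicate 3 and place 238 of replicate 4. This TSS, at 21296621, lay inside the gene, whose 5′ end is at 21296127. That hairpin lay 20086 bp from the summit.

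At lncRNA:CR43857, which contains mir-275, there were 3 peaks with signals of 157, 90.6 and 77.6, and 2 more, of 115 and 96.3, lay at the hairpin or its mature product. The peaks of 157 and 90.6 overlapped each other and matched the same region in each replicate, rank 864 in replicate 3 and 919 in replicate 4. Such sharing touched 4 of the 189 peaks, the other pair being at lncRNA:CR46006.

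lncRNA:CR43314, the primary transcript of mir-bft (also known as mir-263a), which protects sensory bristles from cell death, had a signal of 147. Its ranks were far apart, 4001 in replicate 3 and 283 in replicate 4. At lncRNA:CR46006, the host of mir-276a, the signals were 140, 132 and 73.8, with ranks of 2666, 1817 and 1817 in replicate 3 and of 694, 1059 and 1059 in replicate 4. The TSSs nearest to these peaks, at 10332461 and 10364019, lay inside the gene, whose 5′ end is at 10323501. mir-276a is known for its part in olfactory memory.

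lncRNA:CR43650, the primary transcript of mir-8, a regulator of growth acting in the fat body, had a signal of 138 at 5 bp from its TSS, with rank 2196 in replicate 3 and rank 633 in replicate 4. lncRNA:CR43334, the primary transcript of the growth-promoting miRNA bantam, had a signal of 134 and ranked 1028 in replicate 3 and 621 in replicate 4. The bantam hairpin lay 13924 bp from that summit, and the peak nearest to the hairpin itself was 5983 bp away.

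lncRNA:CR45916, the primary transcript of mir-9a, which is known for its role in sensory organ precursors, had a signal of 121 with rank 3960 in replicate 3 and rank 753 in replicate 4. lncRNA:CR45345, the host of mir-375, had a signal of 110 and ranked 2530 in replicate 3 and 1545 in replicate 4. With the 4797 strongest regions of either replicate alone in place of the thresholded list, the same 11 hosts carried a region with its summit within 500 bp of a TSS, although lncRNA:CR43314 and lncRNA:CR45916 ranked low in replicate 3. The hosts were chosen from a list made from both replicates, so the choice came close to fixing this result.

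The other 26 hosts had no peak within 500 bp of a TSS, their nearest peak being between 1049 and 104726 bp away. They include the host of let-7, mir-100 and mir-125 (lncRNA:let7C, nearest peak at 1093 bp), which is induced at metamorphosis, the host of the muscle miRNA mir-1 (55166 bp), the mir-124 host (76447 bp) and the bithorax complex transcripts iab4 (19233 bp) and iab8 (11178 bp). The host of mir-34 and mir-277, lncRNA:CR43459, was also without a peak at its TSS (4407 bp), although a peak of signal 96.6 lay 245 bp from the start of the mir-34 hairpin.

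**Figure D1:**
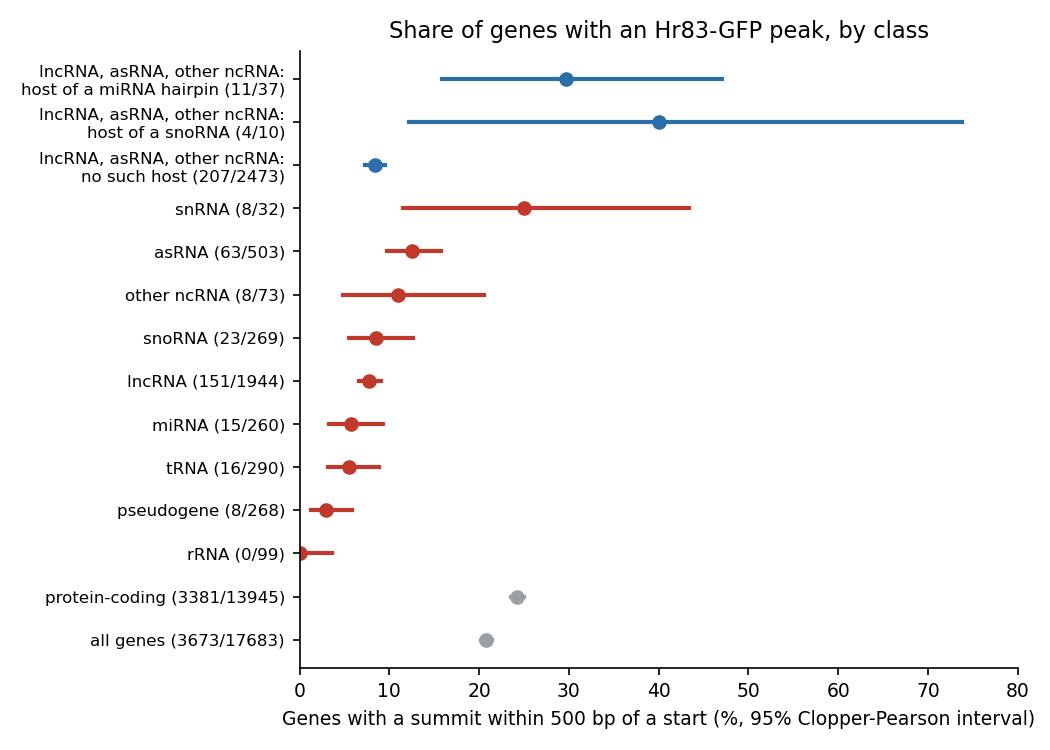
Share of genes with a thresholded summit within 500 bp of any annotated start, in percent. Blue, at the top, are lncRNA, asRNA and other noncoding RNA genes that host miRNA hairpins, snoRNAs or neither. Red is each noncoding class, and grey are protein-coding and all genes. Points are shares, lines are 95% Clopper-Pearson intervals, and the numbers in parentheses are genes with a peak over genes annotated. Hosts of hairpins stood at 29.7% and genes that host neither at 8.37%.

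Some hosts of snoRNAs carried peaks too. Of 10 lncRNA, asRNA and other noncoding genes that contain snoRNAs on their own strand, 4 had a peak (40.0%, 12.2 to 73.8). The wide interval holds the 20.8% of all genes. Coding genes that contain snoRNAs were not counted. Uhg5 and Uhg8 have a coding TSS within 500 bp of their own, and Uhg1 and Uhg4 do not. Still, the Uhg1 summit lay 676 bp from the TSS of rdgBbeta and the Uhg4 summit 559 bp from that of Boot. Both of these genes are head to head with a coding TSS within 1 kb. All 4 hosts with a peak were Uhg genes, whose spliced RNAs have no known product while their introns release snoRNAs. Uhg4, which holds 7 snoRNAs, had a signal of 356 at 56 bp from its TSS and ranked 80 in replicate 3 and 79 in replicate 4. Uhg1, with 16 snoRNAs, had 119 and ranks of 1707 and 1268, Uhg8 had 88.0 and ranks of 2446 and 3857, and Uhg5 had 75.9 and ranks of 1891 and 5478, in replicates 3 and 4 in that order. Uhg4 was thus among the strongest peaks of the class, while the other 3 lay between ranks 1404 and 3555. Uhg2, Uhg3 and Uhg7 had no thresholded peak within 500 bp. The relaxed list, which also holds regions that did not pass the authors' threshold, had a region 43 bp from the start of Uhg2 (signal 48.3) and one 65 bp from that of Uhg3 (37.0).

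By class, 119 of the 189 peaks were at lncRNA genes and 28 at asRNA genes (14.8%). A further 10 lay at miRNAs, 7 each at snoRNAs, snRNAs and tRNAs, 6 at other noncoding RNAs, which were 4 Uhg genes and 2 stable intronic sequence RNAs (sisRNA:CR46357 and sisRNA:4), and 5 at pseudogenes. Together they belonged to 173 genes, of which 13 had more than 1 peak. Median signals were 92.8 at lncRNAs, 97.4 at asRNAs, 108 at miRNAs, 102 at snoRNAs, 84.7 at snRNAs, 73.9 at tRNAs, 85.6 at other noncoding RNAs and 82.9 at pseudogenes. The class ranges overlapped, and the smaller classes rest on 5 to 10 peaks each.

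**Figure D2:**
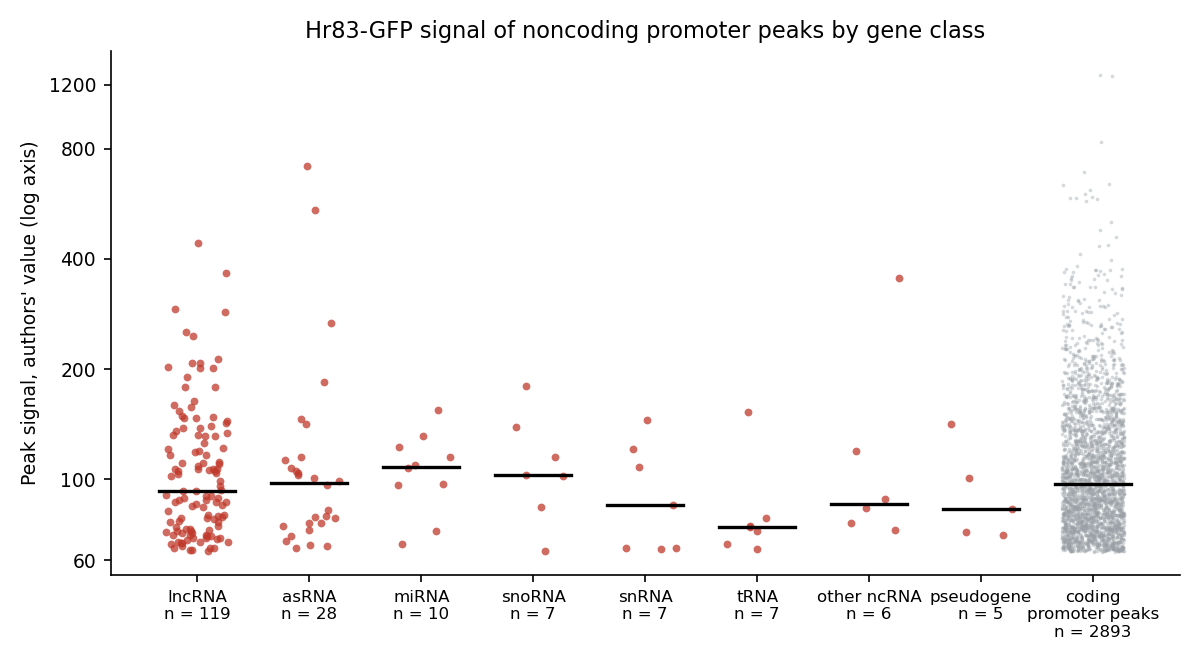
Signal of each peak (authors' value, log axis) at noncoding gene starts by class (red) and at coding promoters (grey, right), with the median as a black line. The median of the lncRNA peaks was 92.8 and that of the coding promoter peaks 96.9, and 5 noncoding peaks stood among the 100 strongest of all.

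Signals of the 189 spanned 63.5 to 719, median 93.2 (95% interval 85.6 to 104), against 96.9 at coding promoter peaks and 93.8 over all thresholded peaks. Of the 189, 94 stood among the 2398 strongest peaks of the list, 49.7%, against 53.0% of coding promoter peaks. The 100 strongest peaks of all included 5 of them.

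The 20 strongest of the 189 had signals of 179 to 719 and all overlapped the strong regions of both replicates. They ranked 13 to 722 in replicate 3 and 10 to 851 in replicate 4, which the choice comes close to fixing, since the signal that chose them is pooled over both replicates. The highest, at asRNA:CR45467 (2R, summit 9881548), had a signal of 719 and ranked 13 in replicate 3 and 10 in replicate 4. This RNA starts inside Sec24AB, which encodes a component of the vesicle coat COPII, on the opposite strand, and the TSS of Sec24AB was 809 bp from the summit.

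asRNA:CR45928, with 543, ranked 21 in replicate 3 and 27 in replicate 4. Its summit was 59 bp from the asRNA start and 88 bp from that of eIF6, a ribosome assembly factor, so the peak is nearly as close to the coding gene. lncRNA:CR44748, with 366, ranked 62 and 83 in replicates 3 and 4 and lay 84 bp from its own start and 249 bp from that of pirk, an inhibitor of the immune deficiency (IMD) pathway. lncRNA:CR30055, with 287 and ranks of 135 and 91, lay 496 bp from the TSS of Sin3A, a co-repressor subunit. lncRNA:CR42549 (208, ranks 194 and 409) and lncRNA:CR43130 (179, ranks 500 and 644) lay 107 bp from mura and 51 bp from aqz. For these 5 of the 20 the nearest TSS does not settle to which gene the peak belongs.

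The other strong peaks were farther from coding starts, although some of their summits lay inside coding genes on the opposite strand. These were asRNA:CR45136 in CG30015, lncRNA:CR34052 in Raf, lncRNA:CR46102 in LpR2 and asRNA:CR46044 in Septin2. lncRNA:CR44274 had a signal of 293, with the nearest coding TSS at 3404 bp. asRNA:CR45136 had 267 (670 bp), lncRNA:CR31840 had 252 (2931 bp), and lncRNA:CR34052 had 208 (3711 bp). lncRNA:CR46102 had 203 (2292 bp, LpR2, a lipophorin receptor), lncRNA:CR45241 had 201 (2450 bp), lncRNA:CR44466 had 190 (534 bp), asRNA:CR46044 had 184 (652 bp), and snoRNA:185 had 179 (13116 bp). The others of the 20 are described above: asRNA:CR45467, Uhg4, Hsromega and the hosts of mir-279, mir-282 and mir-14.

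Distance to coding starts varied widely. A coding TSS also lay within 500 bp of the summit at 43 of the 189 peaks (22.8%, 17.0 to 29.4), and at 19 of these it was at most 100 bp farther than the noncoding one. At 109 peaks the nearest coding TSS was over 1 kb away, and at 40 over 5 kb. The 146 peaks without a coding TSS within 500 bp had a median signal of 98.7, against 79.9 at the 43 with one. The summit lay inside a protein-coding gene at 70 peaks (37.0%).

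The noncoding TSS itself was head to head with a coding TSS within 1 kb at 49 peaks (median signal 86.3) and outside coding genes at 82 (103). It lay inside a coding gene on the opposite strand at 37 peaks (88.9) and on the same strand at 21 (83.1). lncRNA:CR45939 and ftz-f1, which encodes a nuclear receptor of the ecdysone cascade, start 3 bp apart on the same strand, and the summit lay 102 bp from the lncRNA start and 105 bp from that of ftz-f1, with a signal of 135 and ranks of 2859 in replicate 3 and 393 in replicate 4. lncRNA:CR44331 starts inside puc, which encodes a phosphatase that restrains JNK signalling, on the opposite strand. Its peak had a signal of 164, with the summit also inside puc and the nearest puc TSS 7595 bp away.

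Across all annotated genes, a summit lay within 500 bp of a TSS at 292 of 3738 noncoding genes (7.81%, 6.97 to 8.72), against 3381 of 13945 coding genes (24.2%). This count includes genes whose peak was nearer to a coding TSS. Noncoding genes with a coding TSS within 500 bp of their own carried a peak in 24.8% of cases (152 of 612), and those without one in 4.48% (140 of 3126). Of the lncRNA genes, 7.77% carried a peak, and of the asRNA genes 12.5%. Beside a coding TSS the share was 25.7% for lncRNA and 26.9% for asRNA genes, and elsewhere it was 4.99% and 4.36%.

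**Figure D3:**
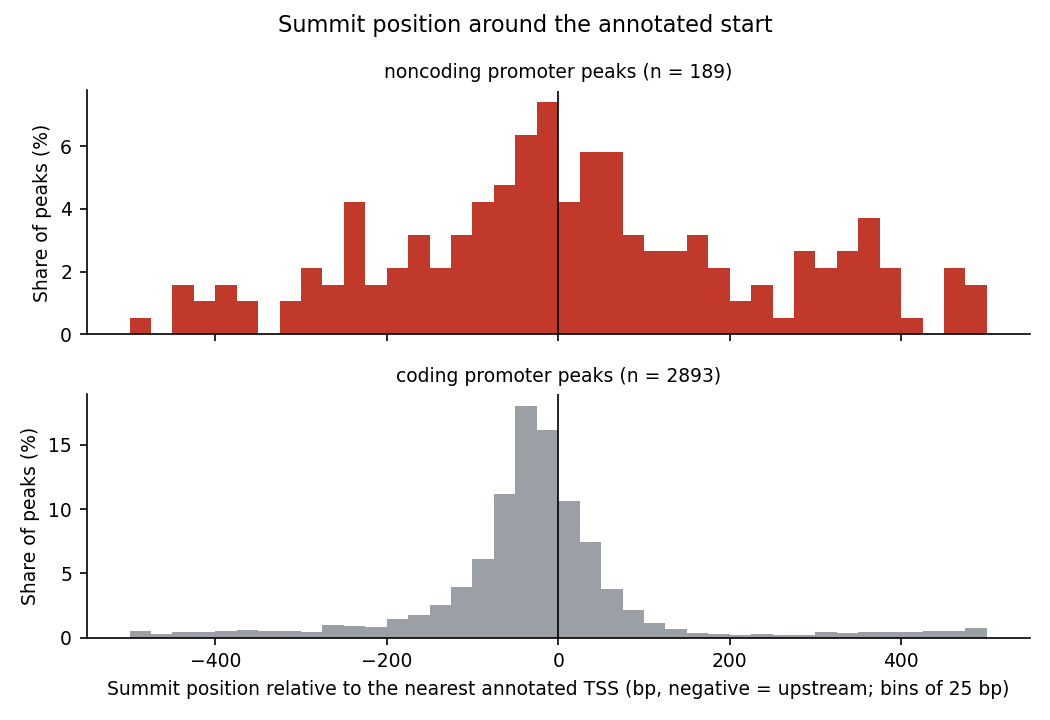
Position of the summit relative to the nearest annotated TSS, in bp, negative upstream, for noncoding promoter peaks (top, red) and coding promoter peaks (bottom, grey), as the share of peaks per bin of 25 bp. The noncoding summits spread across the window, with a median distance of 139 bp, while coding summits gathered near the start, with a median of 48 bp.

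The summits were less tightly placed around noncoding starts. The median distance was 139 bp, against 48 bp at coding promoter peaks, and 79 of the 189 (41.8%) lay within 100 bp, against 75.6%. Upstream and downstream positions were even, with 94 summits upstream of the TSS and 95 downstream. By class, the medians were 155 bp for lncRNA, 78.5 bp for asRNA and 57.5 bp for the other noncoding RNAs that include the Uhg genes. The members nearest to the limit of 500 bp were lncRNA:CR45541 at 500 bp (signal 131), lncRNA:CR45277 at 499 bp (126) and lncRNA:CR44363 at 496 bp (70.1). Just beyond it lay lncRNA:CR45054 at 512 bp (84.2), with lncRNA:CR46110 (107) and lncRNA:CR44478 (77.1) both at 518 bp.

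Of 32 snRNA genes, 8 had a peak (interval 11.5% to 43.4%), a range that holds the 20.8% of all genes and the 24.2% of coding genes, and 7 of these 8 were the gene nearest to a peak. They were 7SKa (signal 145, ranks 1053 and 871 in replicates 3 and 4), U6:96Ac (121, ranks 1194 and 1869), U1:95Ca (108, ranks 636 and 4343), U5:63BC (84.7, ranks 4781 and 1650), LU (64.8, ranks 10798 and 2957), U4:39B (64.8, ranks 8714 and 3034) and U2:34ABb (64.3, ranks 2928 and 6644). The first 4 stood in the strong regions of both replicates, and the last 3, which had the lowest signals, did not. Just 1 of the 7 summits, that of U6:96Ac, lay upstream of the annotated start, by 105 bp. The summits at 7SKa (200 bp), U1:95Ca (92 bp), U5:63BC (89 bp) and U2:34ABb (159 bp) lay downstream, inside the RNA gene. That at U4:39B, 165 bp downstream, was past the end of the gene. U6:96Ab shared the peak of U6:96Ac, 418 bp from its start, and a further copy, U6:96Aa, was 1022 bp away. No thresholded peak lay within 500 bp of 7SKb or of the minor-spliceosome genes U11, U12, U4atac and U6atac. Copies of U1, U2, U4, U5 and U6 are near-identical, and how reads that match several copies were treated is not given in the sources used here, so the copy is uncertain.

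The tRNA class had a peak at 16 of 290 genes (5.52%), and 7 peaks were nearest to a tRNA. The strongest was nearest to tRNA:Leu-CAG-1-1 (153, ranks 1325 and 565 in replicates 3 and 4), followed by tRNA:Phe-GAA-1-5 (78.1, ranks 5454 and 2692) and tRNA:Val-CAC-1-1 (74.2, ranks 2640 and 4543). These summits lay 371 bp downstream, 54 bp upstream and 410 bp upstream of the tRNA starts, in that order. The first of these tRNA genes is 83 bp long, so its peak lay past its end. The median distance of the 7 summits was 218 bp. Of the 7, 3 stood in the strong regions of both replicates. Ribosomal RNA genes had a peak at 0 of 99 (interval up to 3.66%). The treatment of reads that match several gene copies is not given, so this 0 does not tell whether the receptor was bound there. Among snoRNAs, 23 of 269 had a summit within 500 bp (8.55%), and all 7 peaks nearest to a snoRNA stood in the strong regions of both replicates. The strongest were snoRNA:185 (179, ranks 722 and 378), snoRNA:Psi18S-301 (139, ranks 1710 and 821) and snoRNA:2R:9445410 (115, ranks 1242 and 3457).

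Of 260 miRNA hairpins, 15 had a summit within 500 bp of their own start (5.77%, 3.26 to 9.34). All 10 peaks nearest to an miRNA lay inside a host gene on the same strand, 5 of them in a noncoding host that holds mir-14, mir-34, mir-275 or mir-282. The others lay within coding genes, the strongest being mir-4962 in Tlk (154, ranks 1354 and 504) and mir-4985 in Fatp3 (131, ranks 1069 and 2997). mir-9374 lay in Hr39, which encodes a nuclear receptor (107, ranks 2230 and 1781). Pseudogenes had the lowest share of the classes with any peak, 8 of 268 (2.99%), led by CR42875 (142), whose peak was 126 bp from the TSS of CG10068, CR42490 (100, ranks 8127 and 758) and a second peak at CR42490 (82.9) that matched no region of replicate 3.

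The dosage compensation RNA roX1, which brings the male-specific lethal complex to the X chromosome, had a weak peak. Its signal was 68.5, rank 4255, with the summit 38 bp upstream of a TSS, and its places were 8523 in replicate 3 and 4458 in replicate 4, outside the 4797 strongest regions of replicate 3. The partner RNA roX2 had no thresholded peak within 500 bp, the nearest lying 1240 bp away, and only a relaxed region of signal 24.9 at 24 bp. Of 62 known noncoding genes on a list of RNA genes and miRNAs, 15 had a thresholded peak within 500 bp, against 20.8% of all genes and 7.81% of noncoding genes. Those without one include bxd (9442 bp), both 7SL RNA genes (60764 and 62835 bp), the RNA of RNase MRP (1150 bp, with a relaxed region of 57.5 at 189 bp), that of RNase P (1635 bp), acal (2543 bp), cherub (11878 bp), sphinx (44432 bp) and yar (25590 bp).

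**Figure D4:**
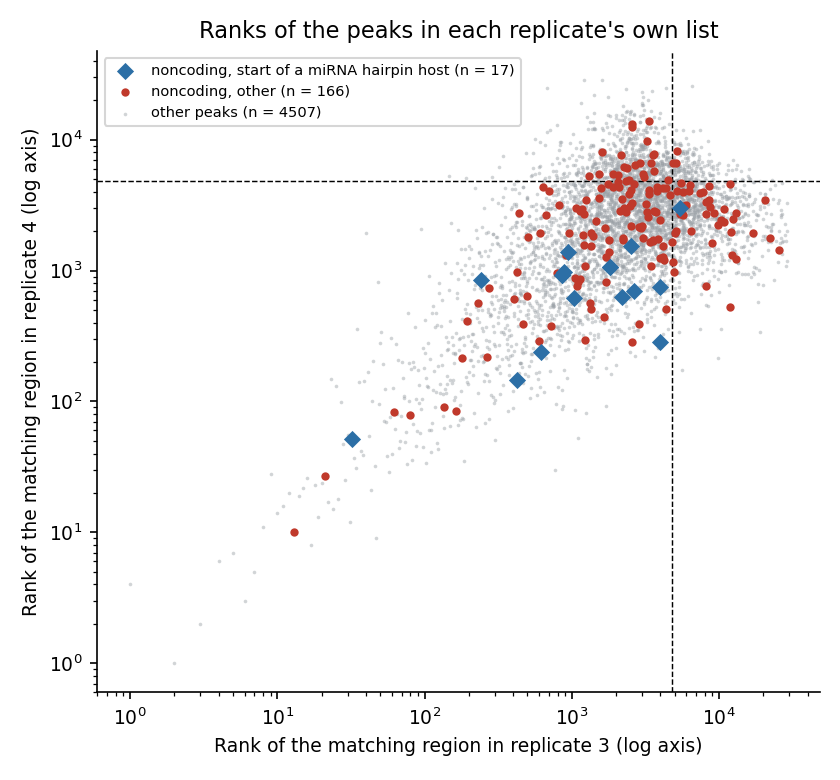
Rank of the strongest overlapping region in replicate 3 (x axis) and in replicate 4 (y axis), both on log axes, for peaks at starts of miRNA hairpin hosts (blue), other noncoding promoter peaks (red) and all other peaks (grey) that match a region in both lists. Dashed lines stand at rank 4797, and 16 of the 17 hairpin host peaks lie below and left of both.

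The replicates were compared through their own region lists, of which the 4797 strongest were taken as strong. Both held a strong region at 117 of the 189 peaks (61.9%, 54.6 to 68.9), against 64.6% of coding promoter peaks and 60.9% of all thresholded peaks. Replicate 3 alone held one at 74.6% and replicate 4 at 85.7%, and 3 peaks had one in neither. With the complete lists of 30000 regions, 183 peaks matched a region in both replicates, 4 had no match in replicate 3 and 2 none in replicate 4. Median ranks were 2539 in replicate 3 and 2206 in replicate 4, against 2289.5 and 2317.5 for coding promoter peaks. Because thresholding drew on both replicates, this overlap is not independent of how the peaks were chosen.

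**Figure D5:**
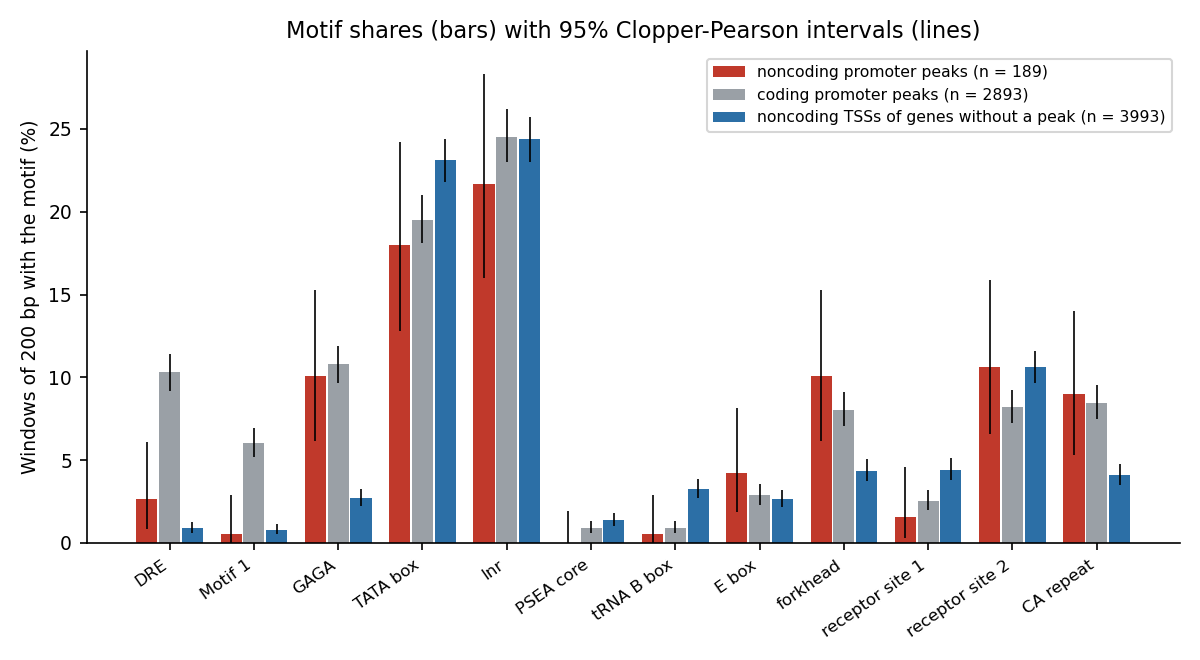
Share of 200 bp windows with each motif, in percent, at noncoding promoter peaks (red), coding promoter peaks (grey) and noncoding TSSs of genes without a peak (blue), with 95% Clopper-Pearson intervals as lines. Receptor sites 1 and 2 are the nuclear receptor sites AGGTCA and AAGTCA. DRE and Motif 1 stood at 10.3% and 6.01% of coding promoter peaks, above their shares at noncoding promoter peaks.

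The DRE and Motif 1, 2 elements known from promoters of housekeeping genes, were in smaller shares of the noncoding than of the coding promoter peaks, with intervals that did not overlap. The motifs searched on both strands, within 200 bp around each summit, were the DRE (TATCGATA), Motif 1 (GTCACACT), a site of the GAGA factor (GAGAGAG), the TATA box (TATAAA), the Inr (TCAGTT or TCAGTC), the core of the snRNA proximal element PSEA (AATTCCCA), the tRNA B box (GTTCGANTC), the E box (CACGTG), a forkhead site (TGTTTAC), the nuclear receptor sites AGGTCA and AAGTCA, and a CA repeat (CACACACA). Each motif was counted on its own, so matches of different motifs could overlap. Peaks at noncoding starts held a DRE in 5 of 189 windows, 2.65% (0.864 to 6.07), against 10.3% (9.18 to 11.4) of coding promoter peaks, 6.48% of all thresholded peaks and 0.902% of noncoding TSSs of genes without a peak. Motif 1 was in 1 window, 0.529% (0.0134 to 2.91), against 6.01% (5.18 to 6.94), 3.84% and 0.801%. Of the 5 DRE windows, 3 were among the 43 peaks with a coding TSS within 500 bp. Coding promoter peaks held 297 of the 311 DRE windows of all thresholded peaks, and 174 of the 184 with Motif 1. The low shares were thus not particular to noncoding starts, since peaks far from any TSS held few of either motif too.

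The GAGA factor site was found in 19 windows, 10.1% (6.16 to 15.3), against 10.8% at coding promoter peaks, 574 of all 4797 peaks and 2.73% (2.25 to 3.28) at noncoding TSSs without a peak. The forkhead site was also in 19 windows, 10.1%, against 8.05% at coding promoter peaks, 8.92% over all peaks and 4.36% at noncoding TSSs without a peak. For the CA repeat the shares in the same order were 8.99%, 8.47%, 10.6% and 4.08%, but in other windows it was more frequent at the 189 than over all peaks, with 6.88% against 5.38% in 100 bp and 20.6% against 17.1% in 400 bp. The shares of these 3 motifs were above those at noncoding starts without a peak, whose windows were centred on the TSS and not on a summit.

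The TATA box was in 18.0% of noncoding promoter peaks, 19.5% of coding promoter peaks and 18.2% of all peaks, and the Inr in 21.7%, 24.5% and 21.6%. The E box stood at 4.23% (1.84 to 8.17), 2.90% and 3.04%. Of the receptor sites, AGGTCA stood at 1.59%, 2.56% and 3.00%, and AAGTCA, which receptors of the NR2E class are known to bind, at 10.6% (6.58 to 15.9), 8.19% and 8.65%, with 10.6% also at noncoding TSSs of genes without a peak. The PSEA core was in 0 windows (interval up to 1.93%), against 0.933% of coding promoter peaks and 0.834% of all peaks. In windows of 400 bp the order turned, with the PSEA core in 3.70% of the 189 and 2.06% of all peaks. The B box was in 1 window of 200 bp, 0.529%, against the same 0.933% and 0.834%. Mean GC content was 46.3% in the noncoding windows, 44.0% at coding promoter peaks and 41.7% at noncoding TSSs without a peak, and its part in these shares was not tested.

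By chromosome, 50 of the 189 peaks were on 2R (26.5%, against 21.3% of all thresholded peaks and 21.3% of noncoding TSSs). The X held 20 (10.6%, against 13.2% and 14.7%), 3R 44, 3L 38, 2L 36 and chromosome 4 had 1.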

How the data were processed

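Per the labels, Hr83-GFP larvae gave 2 biological replicates, numbered 3 and 4. The authors deposited region lists without headers, 1 per replicate and 1 of both pooled, with 30000 regions each, and a thresholded list of 4797 peaks. Per the notes deposited with the samples, regions were called against a control alignment and thresholding compared the replicates by irreproducible discovery rate (IDR). The alignment and peak calling programs and their versions were, in the sources used here, not given. The signal of each peak, as deposited, is the authors' own value, and it served for ranks and descriptions inside 1 list. The −log10 q-values that the authors deposited were not used for ranks. Lists on dm3 were not used.

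Summits (1-based, dm6) on 2L, 2R, 3L, 3R, 4 and X were assigned to the nearest TSS of Ensembl release 115, with 5 ties left out. The RefSeq sequence fitted that annotation: 99.8% of 30593 start codons were ATG. Replicate regions matched a peak by an overlap of at least 1 bp. Python 3.11.15, numpy 2.4.6, pandas 2.3.3, scipy 1.17.1 and matplotlib 3.10.9 were used, and the procedures were tested on simulated data. Intervals are 95% Clopper-Pearson intervals, or order-statistic intervals for medians, and cover counting error only, since peaks and genes are not replicates. Named genes were those at the 20 strongest peaks, the 3 strongest per class, those nearest the 500 bp limit, and 62 known noncoding genes. Hosts of hairpins and other genes outside this rule were chosen after their values were seen. The peaks, lists and motifs were chosen with earlier results of these data known.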

Additional observations from a re-analysis of the deposited data

How the results depend on the processing

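The count of 189 peaks stayed within 1.5 times under windows of 250 and 1000 bp, gene 5′ ends only, ties kept, pseudogenes left out, peak centres, and, added after the data were seen, without transposable element starts or mature miRNA ends. It was 94 among the 2398 strongest peaks. There the median signal was 131, 92.6% lay in the strong regions of both replicates and 4.44% of noncoding genes had a peak, as fewer and stronger peaks were used. The share of noncoding genes with a peak was 4.98% with 250 bp and 12.8% with 1000 bp. The share of peaks in both replicates was 49.7% with an overlap of at least 50% of both regions and 96.8% with the complete lists. Using 1 replicate at a time, the peaks numbered 184 to 202, those with a coding TSS within 500 bp made up 21.2% to 25.7%, 7.41% to 8.16% of noncoding genes had a peak, and 11 hairpin hosts did each time, all 11 of them shared with the thresholded list. That list was made from both replicates, so the count of hosts is not independent of how they were chosen. With gene 5′ ends only, 8 of the 11 hosts remained, or 21.6% of all 37 hosts, beside 20.8% of all genes when every TSS is used. Of 12 motifs, 4 had a higher share than over all peaks in each of the windows of 100, 200 and 400 bp, but just 1, AAGTCA, did so in all 3, and 6, the DRE and Motif 1 among them, had a lower share in all 3. Motif shares grew with the window, in several cases by over 1.5 times. No paired analysis was possible because there was 1 group. Depth was not given, and 2 replicates limit how far single weak peaks can be trusted.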
